A study of Oryza sativa with 8 samples.

Results

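Expansins and xyloglucan endotransglucosylase/hydrolases (XTH) act on the plant cell wall while cells enlarge. Alpha-expansins (EXPA) and beta-expansins (EXPB) loosen the wall without cutting its polymers, and they are known for wall extension at acid pH. Expansin-like A (EXLA) and expansin-like B (EXLB) proteins share the domains of expansins, but wall loosening has not been established for them. XTH enzymes cut xyloglucan chains and can rejoin them, and the walls of grasses hold little xyloglucan but carry many expansin genes. A member here was a gene whose symbol or synonym is EXPA, EXPB, EXLA, EXLB or XTH followed by a number and which had a probe set assigned to it alone. Of 50 genes with such a name, 30 had a probe set of their own, out of 17905 genes with one on the array. These 30 were 14 of 29 EXPA genes, 11 of 15 EXPB genes, all 4 EXLA genes and XTH8, which was the sole gene with an XTH name. Other xyloglucan endotransglucosylase genes may lack such a name, so XTH8 does not stand for that family. EXLB1, 15 EXPA genes and 4 EXPB genes had no probe set under their name and were not analysed here. Members were selected by name, but that rule was set with earlier results of these data known. The probe set that stood for a gene was its brightest.

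The arrays measured leaves of 21-day-old japonica rice seedlings of the cultivar Zhonghua11, either wild type (WT) or overexpressing the GRAS-family gene OsGRAS23 (OsGRAS23-OE, here OE). All seedlings had been raised in liquid culture. Normal leaves were taken before any treatment, and drought leaves came from seedlings placed on filter paper until the leaves of WT plants started to roll. There were 4 groups of 2 Affymetrix arrays, namely WT normal, WT drought, OE normal and OE drought, and each array held RNA from 20 seedlings. The promoter of the transgene and the number of OE lines are not given in the sources used here, and OsGRAS23 itself was not analysed here. The drought end point was set on WT plants for both lines, and drying cannot be told apart from the transfer to filter paper or from the later sampling, because the normal leaves were untreated. In bulk leaf RNA, fewer cells of a type and less RNA per cell cannot be told apart.

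Values are the log2 RMA signals of the authors, in which 1 unit is a 2-fold difference. A gene was called when its adjusted p in limma was under 0.05 over all 57194 probe sets and its change was at least 2-fold. With 2 arrays against 2, an exact permutation test cannot give a two-sided p below 0.333, so each call rests on the spread that limma shares across groups and probe sets. Array medians lay between 4.801 and 4.902, and replicates correlated at 0.987 to 0.991 across probe sets. Of the 3 leaf genes on the marker list, CAB2R, a light-harvesting protein gene, lay between 13.39 and 14.12 and RBCS, a Rubisco small subunit gene, between 13.66 and 14.11, while RBCS1 lay between 3.22 and 3.66. Of the 3 root genes on the list, NRT2.2, a nitrate transporter gene, lay between 5.23 and 6.91. LSI2, a silicon efflux transporter gene, lay between 4.10 and 8.05 and was under 5 on both WT drought arrays and on OE drought replicate 1. LSI1, the silicon influx channel of roots, read 10.75 and 11.80 in WT normal, 9.20 and 9.28 in WT drought, 9.27 and 11.89 in OE normal, and 9.43 and 9.95 in OE drought. The log2 of the summed root signal was 10.88 and 11.94 in WT normal, 9.40 and 9.42 in WT drought, 9.46 and 12.02 in OE normal, and 9.57 and 10.07 in OE drought, so it was lower on drought arrays in WT and unequal between the OE normal arrays. The 18 spiked hybridization controls had a median of 8.80 to 10.10 on the normal arrays and of 10.43 to 11.29 on the drought arrays. For actin, the 3′ minus the 5′ probe set, a sign of RNA quality, was 5.92 to 6.43 on the normal arrays and 5.44 to 5.83 on the drought arrays, without overlap. For GAPDH the same difference was -0.94 on WT drought replicate 2 and not below -0.29 on any other array, and for EF1a it overlapped between conditions. The part of these shifts in the results below was not tested.

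In WT leaves, drought raised 4 of the 30 genes and lowered 1. EXLA2, EXLA4, EXPA5 and EXPA29 rose, and EXPA10 fell. Over all probe sets 2.17% were called higher and 5.51% lower in that comparison (1239 and 3153), and after quantile normalization 1656 were called higher and 2370 lower. In OE leaves, 3 of the 30 rose, namely EXLA1, EXLA2 and EXPA5, and none fell, beside 1.6% of all probe sets called higher and 0.836% called lower. At an unadjusted p under 0.05, 9 of the genes differed in WT and 10 in OE, against 35.9% and 17% of all probe sets. The median change of the 30 genes was 0.32 in WT and 0.20 in OE, and that of all probe sets was 0.08 and 0.02. A mean log2 value above 5 was found for 25 of the 30 genes but for only 47.9% of all probe sets. When these 27376 brighter probe sets were fitted alone, their median change was -0.17 in WT and -0.07 in OE. Of them, 1196 were called higher and 2871 lower in WT, and 942 and 531 in OE. EXLA2 and EXPA5 were called in both lines, 6 genes in at least 1 comparison and 24 in none. The number called higher in WT was 2 without WT normal replicate 2 (EXLA2 and EXPA5), 2 without WT drought replicate 1 (EXLA2 and EXPA26) and 6 without WT normal replicate 1. In OE, EXLA2 alone was called without either OE normal array, either WT drought array or OE drought replicate 1.

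**Figure D1:**
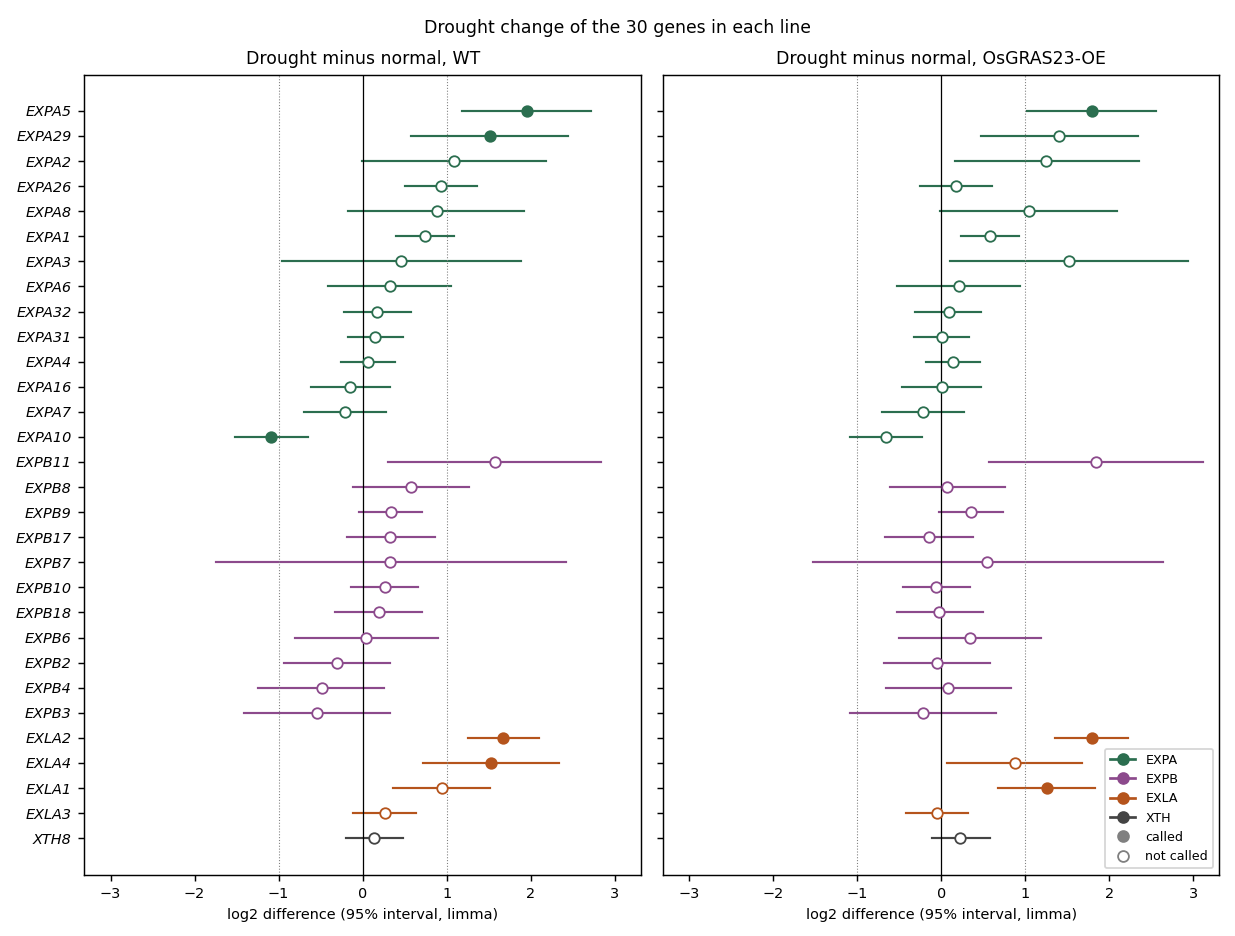
Drought minus normal for the 30 genes in WT (left) and OE (right). The x axis is the log2 difference with its 95% limma interval, dotted lines mark 2-fold, and filled points were called. EXPA5, EXLA2, EXLA4, EXPA29 and EXPA10 are filled in WT, and EXPA5, EXLA2 and EXLA1 in OE.

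Of the 4 expansin-like A genes, 2 were called higher in each line, beside 2.17% of all probe sets in WT and 1.6% in OE. EXLA2 read 8.72 and 8.28 in WT normal leaves and 10.27 and 10.07 in WT drought leaves. In OE it read 8.48 and 8.64 under normal conditions and 10.44 and 10.26 under drought. The 4 drought arrays lay within 0.37 of each other and above all normal arrays. The change was 1.67 (SE 0.19, 95% interval 1.25 to 2.1, adjusted p = 0.00166), or 3.19-fold, in WT by limma. In OE it was 1.79 (SE 0.19, interval 1.36 to 2.22, adjusted p = 0.00301), or 3.46-fold, by limma. A second EXLA2 probe set, of a class that can match several transcripts, gave 1.67 in WT and 1.74 in OE. EXLA2 was called in both lines without any single array and under every other setting that was run.

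EXLA1 carried the highest array values of the 4 EXLA genes, which does not rank transcript amounts between probe sets. It read 10.66 and 9.95 in WT normal, 11.37 and 11.11 in WT drought, 10.08 and 10.45 in OE normal, and 11.36 and 11.69 in OE drought. Every drought array was above every normal array. The OE change of 1.26 (SE 0.25, interval 0.68 to 1.83, adjusted p = 0.0336 by limma) was called, whereas the WT change of 0.94 (SE 0.25, interval 0.36 to 1.51, adjusted p = 0.0358 by limma) was 1.91-fold and therefore not. Without WT normal replicate 1 the WT change was 1.29 (adjusted p = 0.0105 by limma) and was called. Without any one of the OE arrays the OE change was 1.08 to 1.44 and its limma adjusted p 0.063 to 0.239, and it was 0.0629 without either WT drought array.

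EXLA4 had a lower signal. It read 5.87 and 4.76 in WT normal, 7.10 and 6.59 in WT drought, 5.98 and 5.38 in OE normal, and 6.63 and 6.48 in OE drought. Its drought arrays were all above its normal arrays, although the WT normal arrays differed by over 1 unit. EXLA4 rose in WT by 1.53 (SE 0.35, interval 0.72 to 2.33, adjusted p = 0.0213 by limma). Its OE change was 0.88 (SE 0.35, interval 0.07 to 1.68, adjusted p = 0.248 by limma). EXLA4 was no longer called in WT when WT normal replicate 2 was left out (0.97, adjusted p = 0.122 by limma), nor without WT drought replicate 1 (1.27, 0.117) or 2 (1.78, 0.0615). EXLA3 stayed between 6.32 and 6.83 on the 8 arrays, with changes of 0.26 (interval -0.11 to 0.63) in WT and -0.05 (interval -0.42 to 0.32) in OE. The median change of the 4 EXLA genes was 1.23 in WT and 1.07 in OE.

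**Figure D2:**
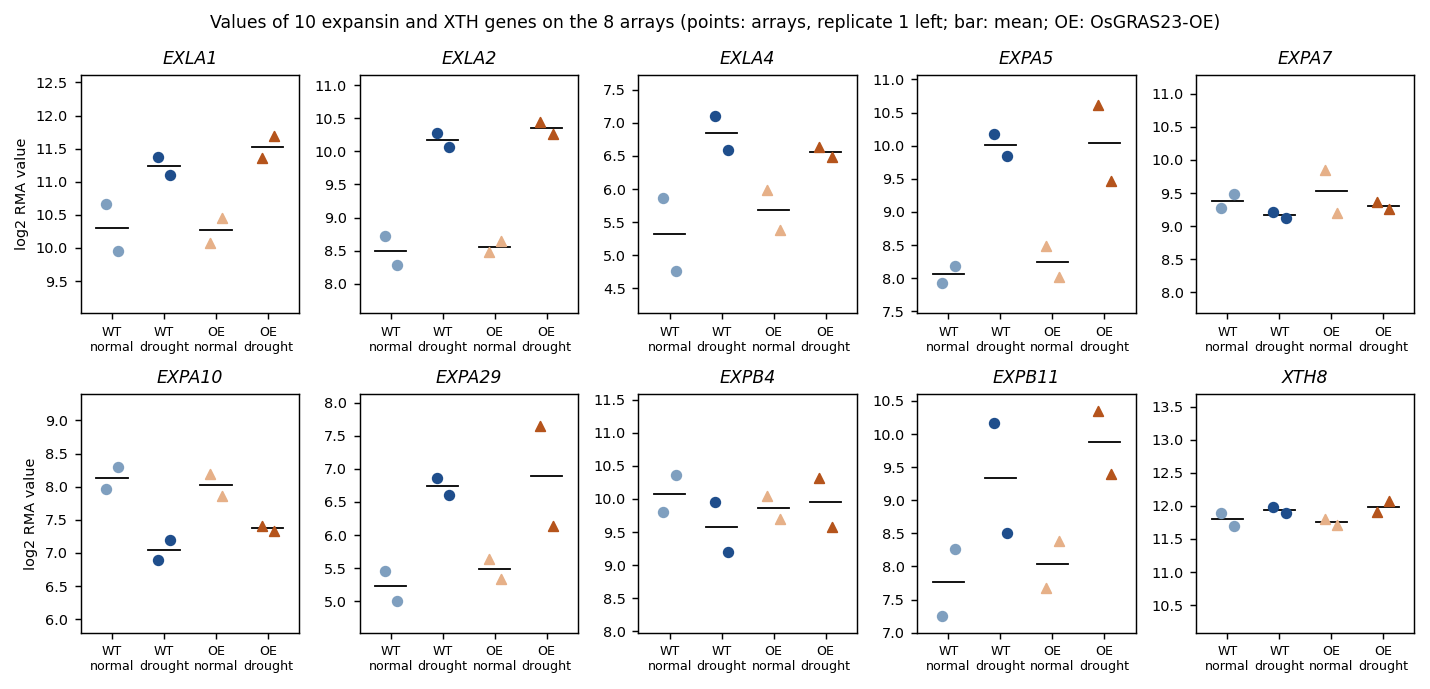
Log2 RMA value on each of the 8 arrays for the 10 genes given in full, with replicate 1 on the left and a bar at the group mean; panels have different ranges but the same span. EXLA2 sits between 8.28 and 8.72 on the normal arrays and between 10.07 and 10.44 on the drought arrays, and EXPA10 is the one gene of the 10 whose 4 drought arrays all lie below its normal arrays.

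Among alpha-expansins, EXPA5 had the widest WT change of the 30 genes. It read 7.93 and 8.19 in WT normal and 10.17 and 9.85 in WT drought. The OE arrays read 8.48 and 8.01 under normal conditions and 10.62 and 9.46 under drought. All drought arrays were higher than all normal arrays, but the OE drought arrays lay over 1 unit apart. EXPA5 rose 3.86-fold in WT (1.95, SE 0.34, interval 1.18 to 2.72, adjusted p = 0.00769 by limma). In OE it rose 3.46-fold (1.79, SE 0.34, interval 1.02 to 2.56, adjusted p = 0.0268 by limma). Without WT drought replicate 1 the WT change was 1.79 with a limma adjusted p of 0.0571. The OE call was lost without either OE normal array (2.02 and 1.56, limma adjusted p = 0.0936 and 0.13), without OE drought replicate 1 (1.22, 0.0575) and without either WT drought array (1.79, 0.0556).

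EXPA29 read 5.45 and 5.0 in WT normal, 6.86 and 6.61 in WT drought, 5.64 and 5.34 in OE normal, and 7.65 and 6.13 in OE drought. Its drought arrays were all above its normal arrays, and OE drought was its most uneven pair. EXPA29 rose in WT by 1.51 (SE 0.41, interval 0.58 to 2.44, adjusted p = 0.0365 by limma). In OE the change was 1.40 (SE 0.41, interval 0.47 to 2.34, adjusted p = 0.112 by limma). EXPA29 was no longer called in WT when WT normal replicate 2 was left out (1.28, adjusted p = 0.215 by limma), nor without WT drought replicate 1 or 2 (1.39 and 1.64, 0.151 and 0.116) nor without either OE normal array (1.51, 0.0521). Without OE drought replicate 2 the OE change was 2.16 (adjusted p = 0.0105 by limma) and was called.

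EXPA10 moved the other way. This gene is known in rice roots as an expansin gene induced by aluminium. It read 7.96 and 8.29 in WT normal, 6.90 and 7.19 in WT drought, 8.19 and 7.86 in OE normal, and 7.41 and 7.33 in OE drought, and it was the sole member with every drought array below every normal array, a pattern that 15.1% of all probe sets had. EXPA10 fell by 1.09 in WT (SE 0.19, interval -1.52 to -0.65, adjusted p = 0.00795 by limma). In OE the change was -0.66 (SE 0.19, interval -1.09 to -0.23, adjusted p = 0.108 by limma). The fall in WT was under 2-fold without WT normal replicate 2 (-0.92, adjusted p = 0.0621 by limma) and without WT drought replicate 1 (-0.94, adjusted p = 0.055 by limma), and also after quantile normalization (-0.82). Its probe set can match several transcripts of the gene. Of 14 genes of dividing and expanding tissue, 3 were called lower in WT and none in OE by limma (4 in OE at an unadjusted p under 0.05). Those in WT were GRF1, a growth-regulating factor (-1.46), PCNA, the sliding clamp of DNA replication (-1.22), and CYCB2;2, a mitotic cyclin (-1.16). Positive changes were seen in 5 of the 14 in WT, the highest for OSH1 (1.34, adjusted p = 0.254 by limma), and in 2 in OE. Over all probe sets, 5.51% were called lower in WT and 0.836% in OE. At an unadjusted p under 0.05, 17% of all probe sets differed in OE. The log2 of the summed signal of the 14 was 10.82 and 11.19 in WT normal, 10.33 and 10.57 in WT drought, 11.64 and 10.97 in OE normal, and 10.93 and 10.64 in OE drought. Its part in the EXPA10 result, and that of the root signal above, was not tested.

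The other 11 EXPA genes were not called in either line. EXPA7 was the brightest EXPA probe set, and a role in salt tolerance has been described for it in rice. It read 9.28 and 9.49 in WT normal, 9.22 and 9.13 in WT drought, 9.85 and 9.20 in OE normal, and 9.36 and 9.26 in OE drought, and its groups overlapped in OE. The change was -0.21 (SE 0.22) in each line, with intervals of -0.70 to 0.28 in WT and -0.70 to 0.27 in OE, and the OE change was 0.11 without OE normal replicate 1. Array values from here to the end of the EXPA and EXPB genes, other than those of EXPB4 and EXPB11, were chosen after they were seen. EXPA1 read 7.12 and 7.13 in WT normal and 7.78 and 7.96 in WT drought, and EXPA26 read 5.24 and 4.77 in WT normal and 5.84 and 6.03 in WT drought. Their WT changes of 0.74 and 0.93 had limma adjusted p-values of 0.0137 and 0.0135 but did not reach 2-fold. With no fold threshold 8 of the 30 genes passed in WT, beside 18.4% of all probe sets. In OE the changes of EXPA1 and EXPA26 were 0.58 (adjusted p = 0.0803 by limma) and 0.18 (0.726).

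EXPA2, EXPA3 and EXPA8 differed more between replicates than between conditions in WT. EXPA8, which has been linked to root growth in rice, read 4.50 and 5.56 in WT normal and 6.61 and 5.20 in WT drought. Its groups overlapped in WT, while the OE drought arrays (6.61 and 7.08) were above the OE normal arrays (5.65 and 5.96). EXPA3 read 4.91 and 6.65 in WT normal, 7.06 and 5.42 in WT drought, 5.37 and 6.31 in OE normal, and 7.34 and 7.37 in OE drought. The WT changes of EXPA2, EXPA3 and EXPA8 were 1.08, 0.46 and 0.88 (limma adjusted p = 0.144, 0.626 and 0.204), and their OE changes were 1.25, 1.52 and 1.04 (limma adjusted p = 0.226, 0.261 and 0.298). EXPA6 and EXPA16 changed by 0.32 and -0.15 in WT and by 0.21 and 0.01 in OE. EXPA4, EXPA31 and EXPA32 stayed under 5 on every array, as did EXPB10 and EXPB18, so the array gave little information on these 5 genes, whose values ran from 2.86 to 3.98.

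None of the 11 beta-expansins was called in either line, and their median change was 0.26 in WT and 0.07 in OE. At an unadjusted p under 0.05, 1 of the 11 differed in each line, beside 35.9% of all probe sets in WT and 17% in OE. That gene was EXPB11. EXPB11 read 7.25 and 8.27 in WT normal, 10.16 and 8.50 in WT drought, 7.68 and 8.39 in OE normal, and 10.35 and 9.40 in OE drought. Its drought arrays were all above its normal arrays, with a gap of only 0.11 between the highest normal and the lowest drought array and over 1 unit between replicates in both WT groups. The change was 1.57 in WT (SE 0.56, interval 0.30 to 2.84, adjusted p = 0.0812 by limma). It was 1.84 in OE (SE 0.56, interval 0.57 to 3.11, adjusted p = 0.123 by limma), the widest OE change of the 30 genes. Without WT drought replicate 2 the WT change was 2.41 (adjusted p = 0.0459 by limma) and was called.

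EXPB6, EXPB2, EXPB3 and EXPB4 follow each other in the RefSeq gene order with 0 protein-coding genes between them, as do EXPB8 and EXPB7. EXPB4 was the brightest EXPB probe set. It read 9.80 and 10.36 in WT normal, 9.96 and 9.20 in WT drought, 10.05 and 9.69 in OE normal, and 10.32 and 9.58 in OE drought, so normal and drought arrays overlapped in both lines. Its change was -0.49 (SE 0.33, interval -1.24 to 0.25) in WT and 0.08 (SE 0.33, interval -0.66 to 0.83) in OE. The EXPB4 probe set is of a class that can match transcripts of several genes, so its signal may hold that of a paralog. Without OE normal replicate 2 or OE drought replicate 1 the OE change of EXPB4 was -0.10 or -0.29. EXPB2, EXPB3 and EXPB6 changed by -0.31, -0.54 and 0.04 in WT and by -0.05, -0.22 and 0.34 in OE.

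EXPB7 was the most uneven member. It read 6.80 and 7.30 in WT normal, 8.61 and 6.15 in WT drought, 6.56 and 6.89 in OE normal, and 8.72 and 5.84 in OE drought, so in both lines drought replicate 1 was above and drought replicate 2 below the normal arrays. Its changes of 0.33 and 0.55 had intervals of -1.75 to 2.42 and -1.53 to 2.64. EXPB8, its neighbour, read 5.93 and 6.18 in WT drought and 5.65 and 6.07 in OE drought, without that split. EXPB8, EXPB9 and EXPB17 changed by 0.58, 0.34 and 0.33 in WT and by 0.07, 0.35 and -0.14 in OE, and none of these 6 changes passed the test.

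**Figure D3:**
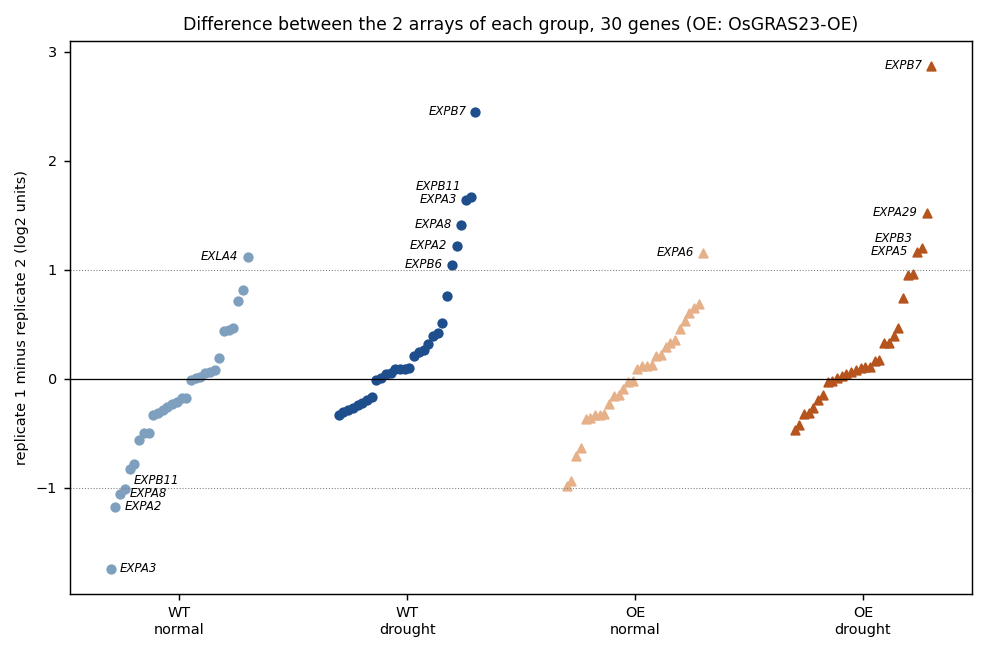
Replicate 1 minus replicate 2 (log2 units) for the 30 genes in each group, ordered within a group, with dotted lines at 1 unit and names beyond them. In WT drought and OE drought every gene beyond 1 unit was higher in replicate 1, up to 2.45 and 2.87 for EXPB7.

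At the median, replicates of these genes differed more than those of all probe sets in every group. The arrays of a group differed by over 1 unit for 5 of the 30 genes in WT normal, 6 in WT drought, 1 in OE normal and 4 in OE drought. Among all probe sets the shares were 1.74%, 1.06%, 1.13% and 1.6%, and among those with a mean above 5 they were 2.59%, 1.86%, 1.93% and 2.74%. The median difference between replicates was 0.39, 0.27, 0.33 and 0.29 for the 30 genes, and 0.22, 0.19, 0.15 and 0.19 for all probe sets, in the same order of groups. That median was not computed for probe sets with a mean above 5 alone. In WT drought the 6 genes were EXPA2, EXPA3, EXPA8, EXPB6, EXPB7 and EXPB11, and all 6 were higher in replicate 1. In OE drought the 4 were EXPA5, EXPA29, EXPB3 and EXPB7, again higher in replicate 1. In WT normal, EXPA2, EXPA3, EXPA8 and EXPB11 were higher in replicate 2, and EXLA4 in replicate 1. The genes were measured on the same arrays, so these counts are not independent.

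XTH8, a xyloglucan endotransglucosylase/hydrolase gene known in rice for its increase under gibberellin, had the brightest probe set of the 30. It read 11.89 and 11.70 in WT normal, 11.98 and 11.90 in WT drought, 11.80 and 11.71 in OE normal, and 11.91 and 12.07 in OE drought. The drought arrays were all above the normal arrays, but the nearest pair was almost equal. The change was 0.14 in WT (SE 0.15, interval -0.20 to 0.48, adjusted p = 0.527 by limma) and 0.23 in OE (SE 0.15, interval -0.11 to 0.58, adjusted p = 0.509 by limma). The intervals leave out a 2-fold change in either direction. CSLC2, of the family that makes the glucan backbone of xyloglucan, read 6.19 and 6.33 in WT normal and 5.21 and 5.19 in WT drought. CSLC2 fell by 1.06 in WT (SE 0.17, adjusted p = 0.00595 by limma), and its OE change was -0.71 (SE 0.17, adjusted p = 0.0636 by limma).

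CSLC2 was the sole gene called among 42 other cell wall genes, which covered cellulose synthases, related polysaccharide synthases, endoglucanases and brittle culm genes. Over all probe sets, 2.17% were called higher and 5.51% lower in WT, and 1.6% higher and 0.836% lower in OE. At the limma threshold with 2-fold, none of the 42 was called higher in either line and none lower in OE. With no fold threshold 7 of the 42 passed in WT, beside 18.4% of all probe sets. In OE 1 passed, CSLA5 (-0.86, adjusted p = 0.0457 by limma), and the share of all probe sets was not computed there. At an unadjusted p under 0.05, beside 17% of all probe sets in OE and 35.9% in WT, 9 and 21 of the 42 genes differed. Their median change was -0.30 in WT and -0.16 in OE, beside 0.32 and 0.20 for the 30 expansin and XTH genes. In WT, both drought arrays lay below both normal arrays for 23 of the 42 and above them for 6, whereas they lay below for 2 and above for 18 of the 30. Over all probe sets, 27.6% lay below and 36.7% above. In OE the counts were 17 below and 3 above for the 42, and 1 below and 14 above for the 30, beside 25.1% and 25.8% of all probe sets.

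All 4 drought arrays were above all 4 normal arrays for 11 of the 30 genes, and this was so for 11.9% of all probe sets. The 11 were EXLA1, EXLA2, EXLA4, EXPA1, EXPA4, EXPA5, EXPA26, EXPA29, EXPB9, EXPB11 and XTH8. They included EXPA4, whose signal was under 5 throughout, and changes as small as those of XTH8. The drought changes of WT and OE correlated at 0.86 across the 30 genes and at 0.79 across all probe sets, and had the same sign for 80% and 74.6%. Genes are not independent replicates.

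None of the 30 genes was called between OE and WT leaves under either condition. Over all probe sets 0.0192% were called between the lines under normal conditions and 0.0157% under drought. Under normal conditions the line differences (OE minus WT) ran from -0.32 for EXPB7 to 0.78 for EXPA8, and 1 gene had an unadjusted p under 0.05, EXLA3 (0.37, adjusted p = 1.0 by limma), beside 4.1% of all probe sets. Under drought they ran from -0.48 for EXPA26 to 1.12 for EXPA3, and EXPA26 was the sole gene with an unadjusted p under 0.05 (adjusted p = 0.694 by limma), beside 7.06% of all probe sets. EXLA2 differed by 0.06 (interval -0.37 to 0.49) under normal conditions and by 0.18 (interval -0.25 to 0.61) under drought.

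The drought change was then compared between lines (OE change minus WT change), and none of the 30 genes and 0% of all probe sets were called. EXLA2 differed by 0.12 (interval -0.48 to 0.72, adjusted p = 0.92 by limma) and EXPA5 by -0.16 (interval -1.25 to 0.93, adjusted p = 0.944 by limma). For EXLA1 the difference was 0.32 (interval -0.49 to 1.14) and for EXLA4 it was -0.65 (interval -1.79 to 0.49), so the calls of EXLA1 in OE and of EXLA4 in WT do not show a difference between the lines. The same holds for EXPA10 (0.43, interval -0.19 to 1.04) and EXPA29 (-0.11, interval -1.43 to 1.21), called in WT. EXPA26 had the sole interval without 0 (-0.75, -1.36 to -0.14, unadjusted p = 0.0214 and adjusted p = 0.729 by limma). At an unadjusted p under 0.05, 6.71% of all probe sets differed in this comparison. The intervals of EXPA3 (-0.95 to 3.07) and EXPB7 (-2.73 to 3.17) leave the drought difference between the lines undetermined within several-fold.

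**Figure D4:**
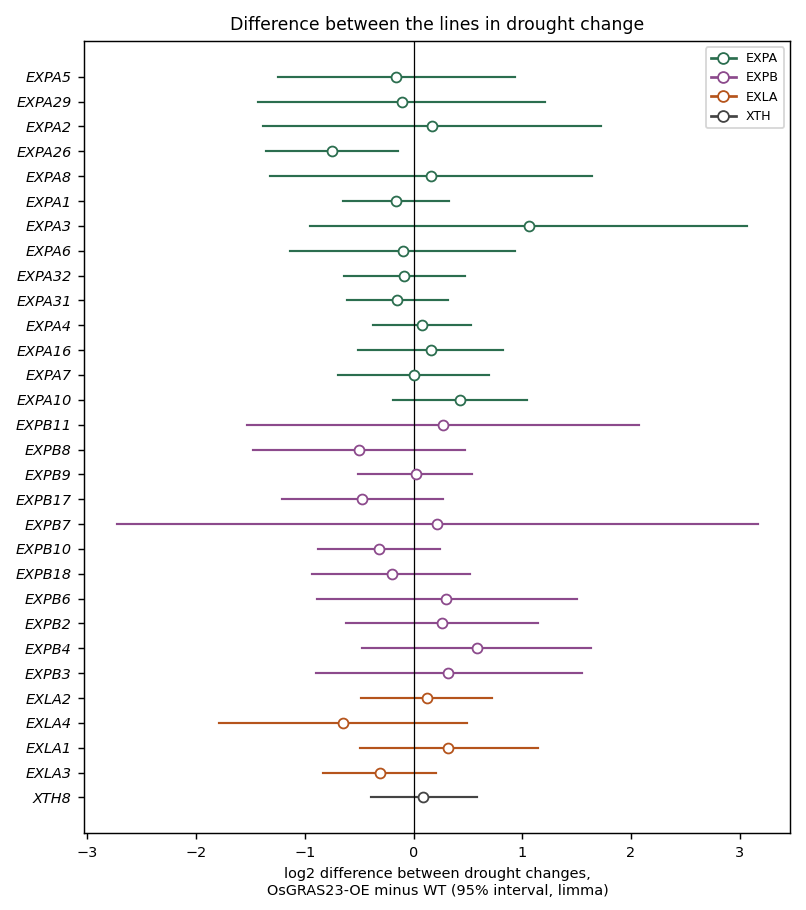
Difference between the lines in drought change (OE minus WT, log2) for the 30 genes, with 95% limma intervals and open points for genes not called. No gene was called, and EXPA26 at -0.75 is the sole interval that leaves out 0.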

How the data were processed

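Leaves of WT and OsGRAS23-OE seedlings were measured on 8 arrays in 4 groups of 2, as labelled, with 6 µg of RNA per labelling. The deposited table holds 1 log2 signal for each probe set and array. Per the submitters' processing notes it came from RMA in Partek 6.5. The settings of that step are not given in the sources used here. With each array sorted, values at the same rank spanned at most 0.415 over the 8 arrays (median 0.169), so the deposited arrays do not share a distribution and how they were normalized between arrays is unknown. They were tested as deposited, with quantile normalization as an alternative. The number of arrays limits the precision.

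After 187 array controls were left out, 57194 probe sets were fitted with limma 3.58.1 in R 4.3.3, using 1 mean per group over all 8 arrays (residual degrees of freedom 4, prior 4.85), and p-values were adjusted by Benjamini-Hochberg. The labels name the 2 arrays of a group as biological replicates, and separate pools of seedlings were assumed. Python 3.11.15, numpy 2.4.6, pandas 2.3.3 and matplotlib 3.10.9 were used for lists and plots. The platform table gave 1 gene for 22436 probe sets, several for 95 and none for 34663. Symbols came from the RefSeq table of assembly ASM3414082v1 through gene IDs, and no coordinates are given. The 30 genes had 34 probe sets, and the brightest stood for a gene. A bHLH gene that also carries the name BC1 was left out of the wall list.

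Members, gene lists and tests were chosen with earlier results of these data known. Values on every array were to be given for EXLA2, for each member called in any comparison, and for the brightest member and the one with the largest WT drought change of each subfamily, which gave 10 genes; other wall genes were named where called. The WT drought test was tried on simulated arrays of 57194 probe sets. It found 75 of 100 with a true log2 change of 1.5 and 93 of 100 with one of 3, while 11 of its 179 calls had no true change. The real spreads were shuffled over probe sets there, and no other probe sets were changed. These rates therefore need not hold for the members.

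Alternatives were quantile normalization, median centring, a fit of the compared groups alone, a filter on a mean log2 value above 5, a trended and robust spread, other call rules, blocking by replicate number, leaving out an array at a time, dropping probe set classes that match more than 1 transcript, and a gene median in place of the brightest probe set. Promoter and protein sequences were not used here.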

Additional observations from a re-analysis of the deposited data

How the results depend on the processing

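EXLA2 was called in both lines under every setting. With an adjusted p under 0.05 and no fold threshold, 7 members were higher in WT rather than 4, with EXLA1, EXPA1 and EXPA26 added. The single lower member in WT, EXPA10, was not called after quantile normalization (0 lower), nor when probe set classes that match more than 1 transcript were dropped (0 lower), since it has no other probe set. At 2-fold with no test, 8 members were higher in OE rather than 3, and 1 member (EXPA3) differed between the lines under drought and 1 (EXPA3) in the drought change, rather than 0. With 1 array left out at a time, 2 to 6 members were higher and 0 to 1 lower in WT, 1 to 3 were higher in OE, and 0 were lower in OE or called between the lines; the lone array of a group was then assumed to vary like the other groups. The direction of small changes turned for EXPA7 in OE (from -0.54 to 0.11 with 1 array left out, the latter without OE normal replicate 1, and 0.10 as the median over probe sets) and for EXPB4 in OE (from -0.29 without OE drought replicate 1 and -0.10 without OE normal replicate 2 up to 0.46). EXPA5 in OE was not called when the compared groups were fitted alone (1.79, adjusted p = 0.0771 by limma). Over the named genes, lines and settings, 284 values kept direction and call, 25 lost the call, 3 gained it and 4 turned. The cause was not tested.

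Same-numbered arrays of different groups correlated in their deviations at -0.166 to 0.0995 over all probe sets. In both drought groups, however, every member beyond 1 unit between replicates was higher in replicate 1. In WT normal, EXPA2, EXPA3, EXPA8 and EXPB11 were higher in replicate 2 and EXLA4 in replicate 1, and in OE normal EXPA6 was higher in replicate 1. The direction over all probe sets was not counted. Whether same-numbered arrays shared handling was not tested. With the number as a replicate block, 4 members were higher and 1 lower in WT, 2 were higher in OE (EXLA1 had an adjusted p of 0.0521 by limma) and 0 were called between the lines. Signal near background limits the 5 members under 5 on every array. It may also limit members with a low reading on single arrays. EXLA4 (4.76) and EXPA26 (4.77) read under 5 on WT normal replicate 2, where EXPA29 read 5.0. EXPA3 (4.91) and EXPA8 (4.50) read under 5 on WT normal replicate 1, and EXPA16 (4.93) on OE drought replicate 2. The part of this in their changes was not tested.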
